A study of Mus musculus with 48 samples.

Results

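The organic ion transporters of the Slc22 family are membrane carriers that move charged metabolites, drugs and urate across epithelial cells. The set described here holds 9 of them, Slc22a2, Slc22a6, Slc22a7, Slc22a8, Slc22a12, Slc22a19, Slc22a26, Slc22a28 and Slc22a30. They were taken by symbol from the 55487 genes of the count table, and earlier results of these data were known when the set was chosen. The table holds 17 other genes of the Slc22 family.

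The libraries are bulk RNA-seq of kidney slices kept alive outside the body, from male mice of C57BL/6J and DBA/2J, the parents of the BXD recombinant inbred panel. Each strain has 8 conditions with 3 libraries each, 48 libraries in all. The conditions are control slices, slices given tunicamycin (a blocker of protein N-glycosylation that stresses the endoplasmic reticulum) and slices given cyclosporin (a calcineurin inhibitor that injures kidneys), each at 6 h and at 24 h. Both other conditions were sampled at 24 h. The labels call normoxia an ischemia model, and they call normoxia-hyperoxia, a switch to high oxygen, a reperfusion model. Drug doses, mouse age, the oxygen given to control slices and when oxygen was switched are not given in the sources used here. The oxygen conditions belong to a separately named section of the study and have no controls of their own, so the controls used below are those of the drug section. That section and the oxygen conditions cannot be told apart in any comparison between them. The labels do not say that the 3 libraries of a group came from separate mice, so p-values measure the spread between these libraries, which may be technical.

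Most of these transporters sit in the proximal tubule, the stretch of the nephron that reclaims solutes from the filtrate and secretes organic acids and bases into it. On the blood side, the organic anion transporters OAT1 (Slc22a6) and OAT3 (Slc22a8) take up organic acids and many drugs in exchange for dicarboxylates, and OCT2 (Slc22a2) takes up organic cations such as creatinine and metformin. OAT2 (Slc22a7) carries cyclic nucleotides and other organic anions. On the urine side, URAT1 (Slc22a12) reclaims urate and OAT5 (Slc22a19) exchanges sulfated steroids. Slc22a26, Slc22a28 and Slc22a30 belong to a rodent cluster of OAT genes whose substrates are less well known. Rodent kidneys express several of these genes differently in males and females, and all the slices here came from males.

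Of the 9 genes, 7 lie on chromosome 19 of GRCm38, and Slc22a2 and Slc22a7 lie on chromosome 17. Slc22a8 (chr19:8591254-8611835) and Slc22a6 (chr19:8618039-8628299) are neighbours on the plus strand. Slc22a12 (chr19:6535845-6543032), Slc22a19 (chr19:7673061-7711310), Slc22a26 (chr19:7781041-7802667), Slc22a28 (chr19:8062209-8131982) and Slc22a30 (chr19:8335371-8405111) lie on the minus strand. Slc22a2 (chr17:12584132-12628488) is on the plus strand and Slc22a7 (chr17:46432183-46438457) on the minus strand. Slc22a12 lies wholly inside the opposite-strand gene Nrxn2 (chr19:6418731-6544169), and the strand setting of the counting is not given in the sources used here, so reads of the 2 genes cannot be told apart with certainty.

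RefSeq promoters of GRCm38.p6, 300 bases each from 250 before to 50 after the gene start, were matched for 8 of the 9 genes, all but Slc22a7. The pair below belongs to Slc22a28 (chr19:8131933-8132232, minus strand) and Slc22a30 (chr19:8405056-8405355, minus strand), and is shown because the promoters are nearly the same while the counts of the genes split by strain. Capitals mark the bases of each window with no identical partner in the other.
Slc22a28: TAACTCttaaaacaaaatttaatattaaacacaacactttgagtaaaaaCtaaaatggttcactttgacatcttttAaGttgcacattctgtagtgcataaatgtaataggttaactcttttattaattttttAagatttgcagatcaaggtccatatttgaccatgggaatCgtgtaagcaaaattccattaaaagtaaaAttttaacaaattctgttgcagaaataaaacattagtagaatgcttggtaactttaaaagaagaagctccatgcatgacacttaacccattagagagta
Slc22a30: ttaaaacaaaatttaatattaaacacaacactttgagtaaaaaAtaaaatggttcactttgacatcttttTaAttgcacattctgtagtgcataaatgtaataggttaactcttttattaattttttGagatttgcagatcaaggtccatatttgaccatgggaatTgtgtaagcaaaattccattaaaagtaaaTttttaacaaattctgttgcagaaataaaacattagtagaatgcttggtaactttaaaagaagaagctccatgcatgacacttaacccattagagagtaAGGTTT
The element CAAAGTNCA, bound by the liver and tubule factor HNF4, was searched on both strands with up to 1 mismatch. It was present in 4 of the 8 promoters (Slc22a12, Slc22a19, Slc22a28 and Slc22a30) and in 22.9% of 32851 promoters of the same length. Every match in these 4 promoters had 1 mismatch. Slc22a28 and Slc22a30, with nearly the same promoters, held the same matched letters, so the 4 are not independent. A match is a description of letters and not a measured site. Of 294 aligned bases of Slc22a28 and Slc22a30, 288 were identical (98%), and the other 27 pairs of promoters shared 55.7 to 69.9%. The coding sequences of Slc22a28 and Slc22a30 differed at 20 of 1659 bases (98.8% identity). The 5 other pairs among Slc22a19, Slc22a26, Slc22a28 and Slc22a30 shared 74.5 to 78.3% of coding bases, and the 30 remaining pairs of the 9 genes 60.4 to 66.3%. Stretches of 50 bases found in another annotated transcript made up 53.9% of such stretches in Slc22a28, 34.3% in Slc22a30, 27.4% in Slc22a12, 6.21% in Slc22a26, 4.44% in Slc22a2 and under 1% in the other 4 genes. Counts of Slc22a28 and Slc22a30 are therefore uncertain where the counting could split or drop their shared reads.

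Library totals ran from 5619309 to 25137581 counts with a median of 19607361. The lowest was DBA/2J normoxia-hyperoxia replicate 2, and the next lowest held 12384733. Levels are given as CPM, a gene's count scaled by the total count of its library, and tests use edgeR's quasi-likelihood model with Benjamini-Hochberg adjustment over all genes tested and a threshold of 0.05. Mitochondrial genes took 8.05 to 16.3% of counts in the 6 h controls, 3.39 to 7.87% in the 24 h controls, 11.8 to 25.6% under normoxia and 11 to 17.4% under normoxia-hyperoxia, and a fit without mitochondrial genes lost no call of a transporter and gained 1, the strain difference of Slc22a28 in normoxia against 24 h controls (-1.12, adjusted p = 0.0464). The mitochondrial share was higher in C57BL/6J without overlap in the 6 h controls (14.8 to 16.3% against 8.05 to 8.32%), the 24 h controls (5.96 to 7.87% against 3.39 to 3.60%) and under normoxia (22.8 to 25.6% against 11.8 to 12.8%), and overlapped under normoxia-hyperoxia. All 10 proximal tubule markers listed for this work were above 0 in every library. No pair of replicates agreed within sampling noise.

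Per kilobase of exon, URAT1 was the most abundant of the 9 transcripts. In the 6 h controls Slc22a12 averaged 186 CPM per kilobase in C57BL/6J and 259 in DBA/2J, Slc22a6 69.3 and 187, Slc22a8 61.2 and 91.2, and Slc22a2 38.5 and 87.5. The rest were less abundant on the same scale, with Slc22a28 at 12.6 and 9.93, Slc22a30 at 7.14 and 15.9, Slc22a7 at 4.48 and 23.4, Slc22a19 at 0.375 and 1.11, and Slc22a26 at 0.0849 and 0.123. Raw counts of Slc22a12 ran from 663 to 35286 per library and those of Slc22a26 from 0 to 296. Few counts in part of the libraries lay behind Slc22a26, Slc22a19 (from 1 to 1597), Slc22a28 (from 7 to 1775), Slc22a7 (from 8 to 2983) and Slc22a30 (from 13 to 3386). Libraries of a group spread by up to 17.6-fold for Slc22a7 and 21.8-fold for Slc22a19. For Slc22a26 the spread reached 11-fold in groups without a count of 0, and the other 6 genes spread by at most 6.29-fold.

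**Figure D1:**
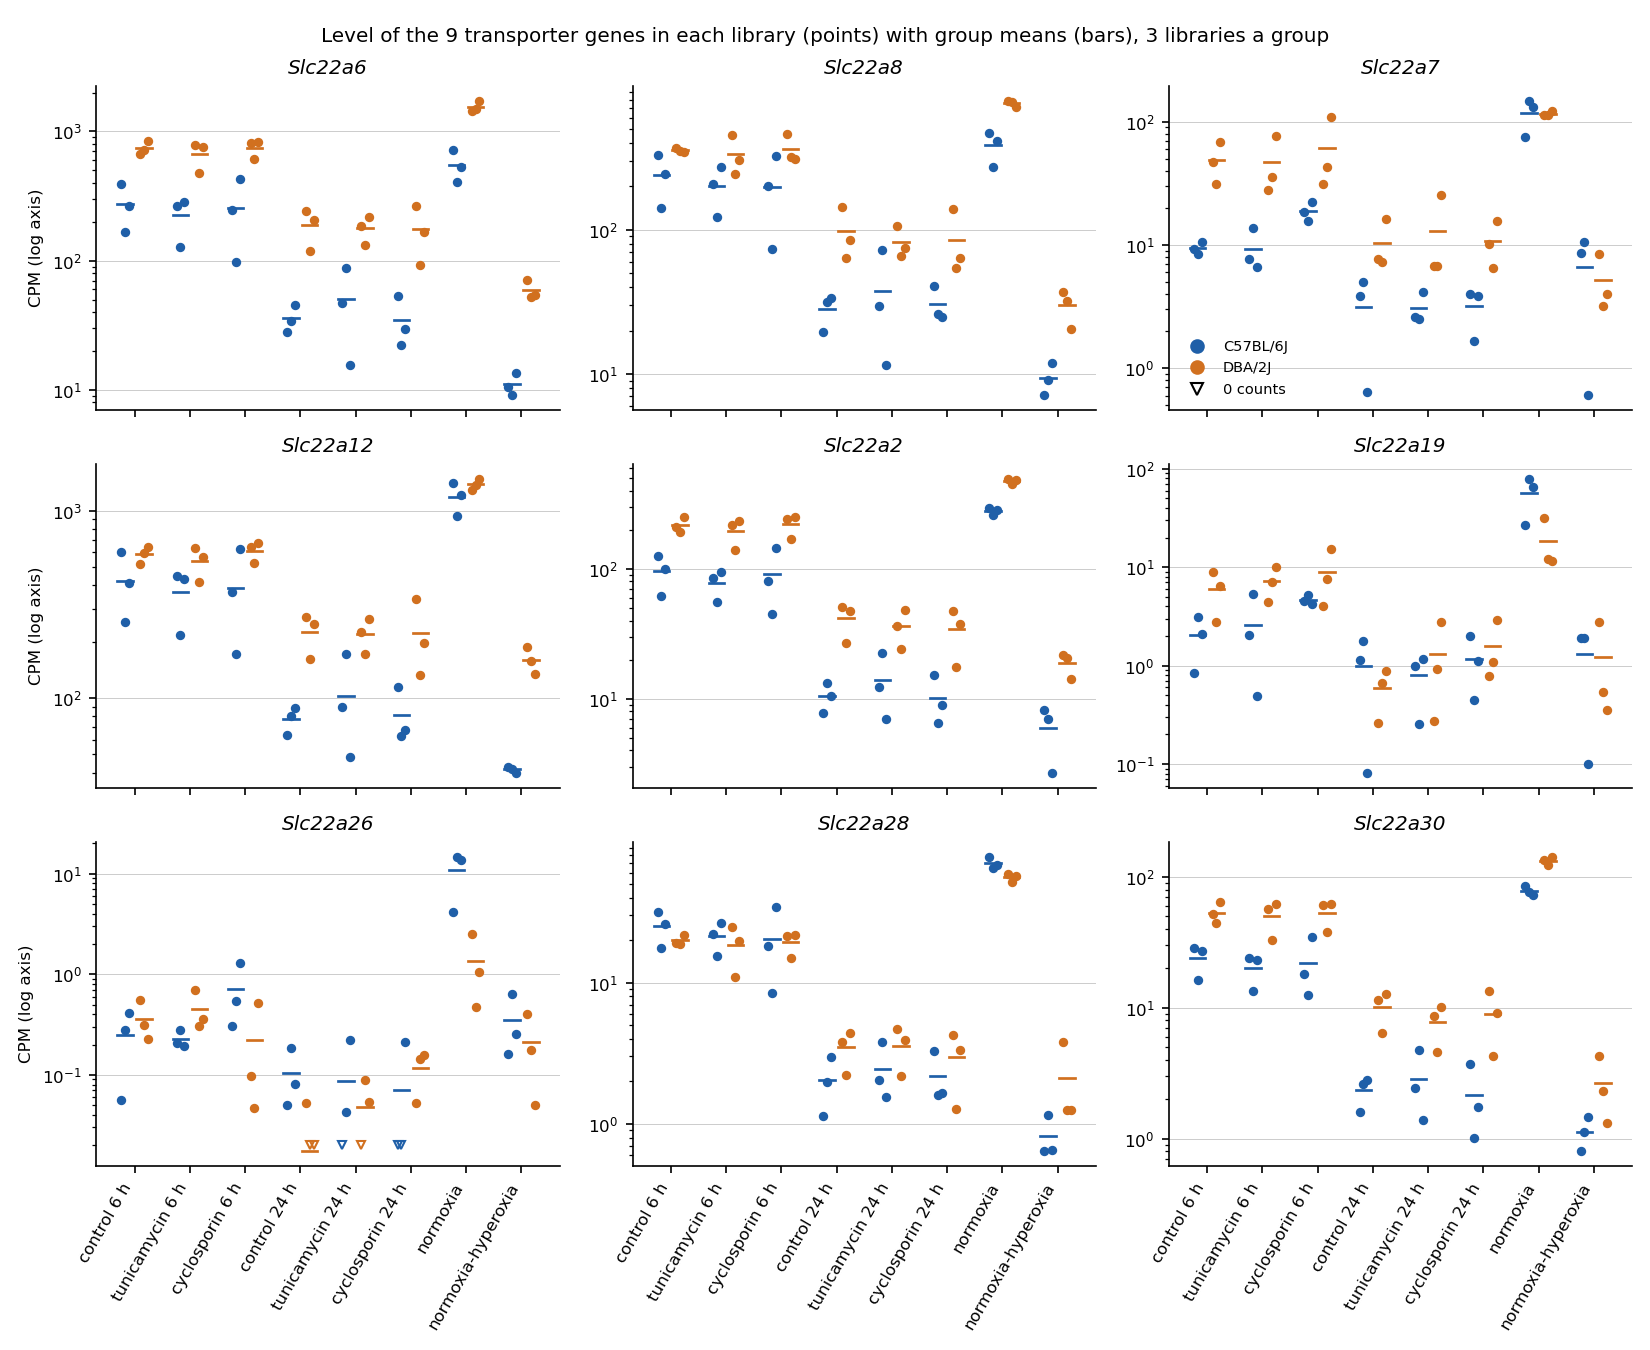
Level of each of the 9 transporters in every library, in CPM on a log axis, by condition and strain. Points are libraries and bars are means of 3 libraries, and open triangles at the bottom of the Slc22a26 panel are libraries with 0 counts. Normoxia holds the highest means and, for Slc22a2, Slc22a6, Slc22a8, Slc22a12, Slc22a28 and Slc22a30, normoxia-hyperoxia the lowest.

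The 6 genes with the smallest spread within groups, Slc22a2, Slc22a6, Slc22a8, Slc22a12, Slc22a28 and Slc22a30, followed 1 order in both strains. Their means were lowest under normoxia-hyperoxia, higher in the groups at 24 h, higher again in the groups at 6 h and highest under normoxia. The 6 h and 24 h groups did not overlap at the step between them, and neither did the 6 h groups and normoxia except for Slc22a6 and Slc22a8 in C57BL/6J. Neighbours among the 3 groups at 6 h, or among the 3 at 24 h, overlapped. The normoxia-hyperoxia libraries lay below all libraries of the 24 h control and drug groups for Slc22a6 in both strains, for Slc22a8 in DBA/2J and for Slc22a12 in C57BL/6J. Elsewhere they overlapped at least 1 of those groups. For Slc22a19 and Slc22a26 most neighbouring groups overlapped apart from C57BL/6J normoxia.

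OAT1, the uptake carrier for organic acids on the blood side, had a separate level in each of 4 conditions. In C57BL/6J slices, 394, 167 and 267 CPM of Slc22a6 were measured at 6 h, 28.1, 34.4 and 45.6 at 24 h, 715, 404 and 535 under normoxia and 10.4, 9.11 and 13.6 under normoxia-hyperoxia. DBA/2J slices held 668, 721 and 841 CPM at 6 h, 243, 119 and 208 at 24 h, 1449, 1495 and 1729 under normoxia and 71.5, 52.3 and 54.4 under normoxia-hyperoxia. The libraries of the 4 conditions did not overlap within a strain for Slc22a6, and every DBA/2J library was above every C57BL/6J library of its condition.

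OAT3 and OCT2 had the same order of conditions. The C57BL/6J libraries held 332, 143 and 243 CPM of Slc22a8 at 6 h, 19.4, 31.5 and 33.7 at 24 h, 471, 271 and 412 under normoxia and 7.13, 9.11 and 11.8 under normoxia-hyperoxia. For Slc22a8 in DBA/2J, the libraries were at 371, 351 and 347 CPM at 6 h, 144, 64.1 and 84.6 at 24 h, 785, 771 and 706 under normoxia and 36.8, 32.2 and 20.6 under normoxia-hyperoxia. C57BL/6J control replicate 2 at 6 h and normoxia replicate 2 were the low libraries of their groups for Slc22a8. In C57BL/6J slices, 125, 61.9 and 99.9 CPM of Slc22a2 were measured at 6 h, 7.72, 13.3 and 10.4 at 24 h, 292, 262 and 284 under normoxia and 8.15, 7.04 and 2.67 under normoxia-hyperoxia. DBA/2J slices held 212, 191 and 249 CPM at 6 h, 50.6, 26.9 and 47.2 at 24 h, 494, 451 and 480 under normoxia and 21.8, 20.6 and 14.1 under normoxia-hyperoxia. The lowest normoxia library of Slc22a2 was above the highest 6 h control of its strain, and all DBA/2J libraries were above the C57BL/6J ones.

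Urate reabsorption was represented by URAT1. The C57BL/6J libraries held 601, 255 and 410 CPM of Slc22a12 at 6 h, 63.4, 80.7 and 89.1 at 24 h, 1415, 937 and 1223 under normoxia and 43.1, 42 and 39.7 under normoxia-hyperoxia. For Slc22a12 in DBA/2J, the libraries were at 521, 597 and 638 CPM at 6 h, 270, 162 and 248 at 24 h, 1295, 1382 and 1484 under normoxia and 187, 157 and 134 under normoxia-hyperoxia. For Slc22a12 the strains overlapped at 6 h and under normoxia and stood apart at 24 h and under normoxia-hyperoxia, where DBA/2J was higher.

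Slices kept for 24 h were compared with slices kept for 6 h, without drug, to describe how the transporters differed between these culture times. All 8 transporters that could be tested were lower at 24 h over both strains, and Slc22a26 did not pass the filter on low counts. The log2 change was -3.0 ± 0.22 (SE, 12 libraries) for Slc22a2, -2.67 ± 0.23 for Slc22a6, -2.69 ± 0.25 for Slc22a8 and -2.12 ± 0.20 for Slc22a12. It was -3.32 ± 0.21 for Slc22a28, -3.10 ± 0.21 for Slc22a30, -2.07 ± 0.34 for Slc22a7 and -2.35 ± 0.50 for Slc22a19, whose adjusted p of 0.00113 was the highest of the 8. Among all 16962 genes tested, 37.4% were called lower and 34.7% higher. The median log2 change was -2.68 over the 8 transporters and -0.02 over all genes tested. In 7 of the 8 the 24 h libraries lay below the 6 h libraries without overlap in both strains, as did 20.6% of all genes tested. The exception was Slc22a19.

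The fall was numerically larger in C57BL/6J than in DBA/2J for 6 of the 8 transporters. For Slc22a12 the log2 change was -2.71 in C57BL/6J and -1.52 in DBA/2J, and for Slc22a8 it was -3.36 and -2.02. The values went the other way for Slc22a7 (-1.74 and -2.41) and for Slc22a19, with -1.18 in C57BL/6J (adjusted p = 0.161) and -3.51 in DBA/2J. In mean CPM, Slc22a19 was 2.05-fold lower in C57BL/6J, and 3.33-fold lower without C57BL/6J 24 h control replicate 2. None of the 8 differences between strains passed the test of the difference, with adjusted p from 0.217 to 0.741, although 7 had an unadjusted p under 0.05. Without the filter on low counts all 8 passed, with adjusted p of up to 0.0339. That test called 0.69% of all genes.

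The fall of the transporters came with a fall of the tubule markers. The 10 proximal tubule markers, among them the sodium-phosphate carrier Slc34a1 and the endocytic receptors Lrp2 and Cubn, were all lower at 24 h with a median log2 change of -2.67. Their summed level ran from 3742 to 10156 CPM in the 6 h controls and from 687 to 3044 CPM in the 24 h controls. The 9 transporters summed to 673 to 2237 CPM and 126 to 730 CPM in the same libraries. Markers of other cells fell too, all 3 of the loop of Henle (median -1.38), all 3 of the distal convoluted tubule (-1.97), all 5 of the collecting duct (-1.44), all 3 of podocytes (-0.89) and all 4 of stroma (-1.57). Endothelial markers split (1 higher and 2 lower of 4), as did immune markers (1 and 3 of 4), and 3 of 4 hepatocyte markers were lower. In bulk slices, fewer cells of a type and less RNA per cell cannot be told apart.

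**Figure D2:**
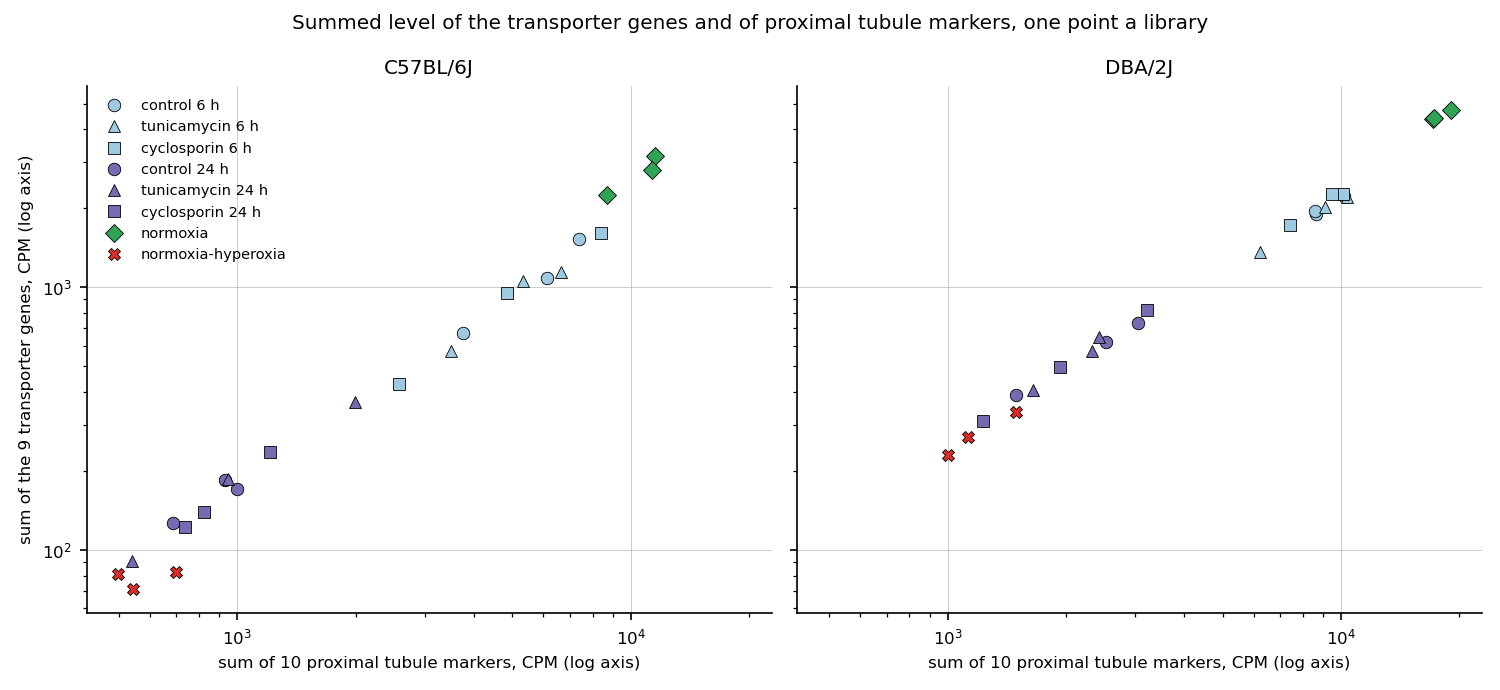
Summed CPM of the 9 transporters against summed CPM of the 10 proximal tubule markers, both on log axes, with 1 point per library and a panel per strain. The transporters range from 70.9 to 337 CPM under normoxia-hyperoxia and from 2256 to 4732 CPM under normoxia, and the markers from 497 to 1489 and from 8724 to 19020.

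Normoxia slices held more of every transporter than control slices of the same age. Over both strains 8 of the 8 genes other than Slc22a26 were higher under normoxia than in 24 h controls, with log2 differences from 3.55 to 5.6, a median of 4.48 and a highest adjusted p of 6.21e-06. Of 17375 genes tested, 42.4% were called higher, 39.7% lower, and the median over all genes was 0.05. All 8 were also without overlap in both strains, against 26% of all genes. Slc22a26 passed the filter on low counts through its normoxia libraries, so it had to differ and is not counted.

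In C57BL/6J the ratio of mean CPM was 26.6-fold for Slc22a2, 15.3-fold for Slc22a6, 13.6-fold for Slc22a8 and 15.3-fold for Slc22a12. In DBA/2J the same ratios were 11.4-, 8.20-, 7.74- and 6.12-fold. For Slc22a28 they were 34.3-fold and 16-fold, and for Slc22a30 33.6-fold and 13-fold. Each of the 6 ratios was numerically larger in C57BL/6J. The difference between strains, DBA/2J effect minus C57BL/6J effect on the log2 scale, passed the test for Slc22a12 (-1.22 ± 0.27, adjusted p = 0.0113), Slc22a30 (-1.27 ± 0.32, adjusted p = 0.0219) and Slc22a2 (-1.10 ± 0.31, adjusted p = 0.0360). That test called 17% of all genes. A fit of all 48 libraries called none of the 3, with an adjusted p of 0.124 for Slc22a12. The call for Slc22a2 was lost in 10 of the 12 fits that left out 1 library (adjusted p 0.0524 to 0.0814), and that for Slc22a30 without C57BL/6J 24 h control replicate 1 (-1.03, adjusted p = 0.0646). Without DBA/2J 24 h control replicate 2 the differences for Slc22a6 (-1.17, adjusted p = 0.0321) and Slc22a28 (-1.41, adjusted p = 0.00556) passed too, and without C57BL/6J 24 h control replicate 3 that for Slc22a28 did (-1.42, adjusted p = 0.0219).

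The ratios in C57BL/6J were larger still for Slc22a7 and Slc22a19. In C57BL/6J slices, 9.23, 8.51 and 10.5 CPM of Slc22a7 were measured at 6 h, 3.88, 4.96 and 0.646 at 24 h, 75.3, 148 and 130 under normoxia and 8.52, 10.6 and 0.605 under normoxia-hyperoxia. DBA/2J slices held 47.4, 31.3 and 68.6 CPM at 6 h, 7.7, 7.25 and 16.3 at 24 h, 114, 112 and 121 under normoxia and 8.39, 3.2 and 3.96 under normoxia-hyperoxia. C57BL/6J normoxia was far above the other 3 groups of its strain for Slc22a7, and the 24 h and normoxia-hyperoxia libraries overlapped. The C57BL/6J libraries held 0.839, 3.16 and 2.12 CPM of Slc22a19 at 6 h, 1.14, 1.76 and 0.0807 at 24 h, 27.1, 79.1 and 66 under normoxia and 1.92, 1.91 and 0.101 under normoxia-hyperoxia. For Slc22a19 in DBA/2J, the libraries were at 8.86, 2.79 and 6.46 CPM at 6 h, 0.26, 0.66 and 0.88 at 24 h, 31.5, 12 and 11.6 under normoxia and 2.76, 0.534 and 0.351 under normoxia-hyperoxia. The ratio of mean CPM under normoxia to that in 24 h controls was 57.6-fold in C57BL/6J for Slc22a19 and 37.3-fold for Slc22a7, against 30.7-fold and 11.1-fold in DBA/2J. Neither strain difference passed the test (adjusted p = 0.841 for Slc22a19 and 0.161 for Slc22a7). For Slc22a19 the C57BL/6J ratio was 93.6-fold without 24 h control replicate 2, and the DBA/2J ratio 19.7-fold without normoxia replicate 1.

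Slc22a26 was nearly absent outside normoxia. Its C57BL/6J libraries held 94, 296 and 269 counts under normoxia against 1, 4 and 1 in the 24 h controls. Most of these control libraries were under the floor of 3 counts a library used here, so no fold is given. The DBA/2J libraries held 61, 9 and 25 counts under normoxia and 1, 0 and 0 in the 24 h controls, all under that floor. Against that floor the DBA/2J mean under normoxia was at least 7.86-fold higher, or at least 4.46-fold without normoxia replicate 1, the library with 61 counts. The highest count outside normoxia was 25, in C57BL/6J cyclosporin replicate 3 at 6 h. The floor covers counting error only.

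Compared with slices at 6 h, the youngest controls, normoxia slices were also higher. All 8 genes other than Slc22a26 were called higher, with log2 differences from 0.91 ± 0.17 for Slc22a8 to 3.23 ± 0.47 for Slc22a19 and a median of 1.45. The share called higher over 16819 genes was 32.9%, and the median over all genes was 0.02. The difference was 1.36 ± 0.13 for Slc22a2, 1.05 ± 0.18 for Slc22a6, 1.39 ± 0.17 for Slc22a12, 1.5 ± 0.11 for Slc22a28 and 1.53 ± 0.12 for Slc22a30. For OAT2 the strains differed. Slc22a7 was 12.5 times as high as in 6 h controls in C57BL/6J but 2.36 times in DBA/2J in mean CPM, and the log2 effects of 3.57 and 1.35 differed by -2.22 ± 0.40 (adjusted p = 0.0168). The test of strain difference called 3.66% of all genes there, and the Slc22a7 call was lost without C57BL/6J 6 h control replicate 2 (-2.20, adjusted p = 0.0520) and in the fit of all 48 libraries (adjusted p = 0.118). For Slc22a19 the effects were 4.73 and 1.73 (adjusted p of the difference 0.122). Under DESeq2 this difference passed, with an adjusted p of 0.0248. The DBA/2J ratio of mean CPM for Slc22a19 was 3.05-fold, and 1.96-fold without DBA/2J normoxia replicate 1. In C57BL/6J alone, where 24.7% of all genes were called higher, the effect for Slc22a8 was 0.62 (adjusted p = 0.0493), and 5 fits that left out 1 library lost it, with adjusted p from 0.0625 to 0.168. The fit of all 48 libraries called neither Slc22a8 (0.255) nor Slc22a6 (0.0802) in C57BL/6J alone.

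**Figure D3:**
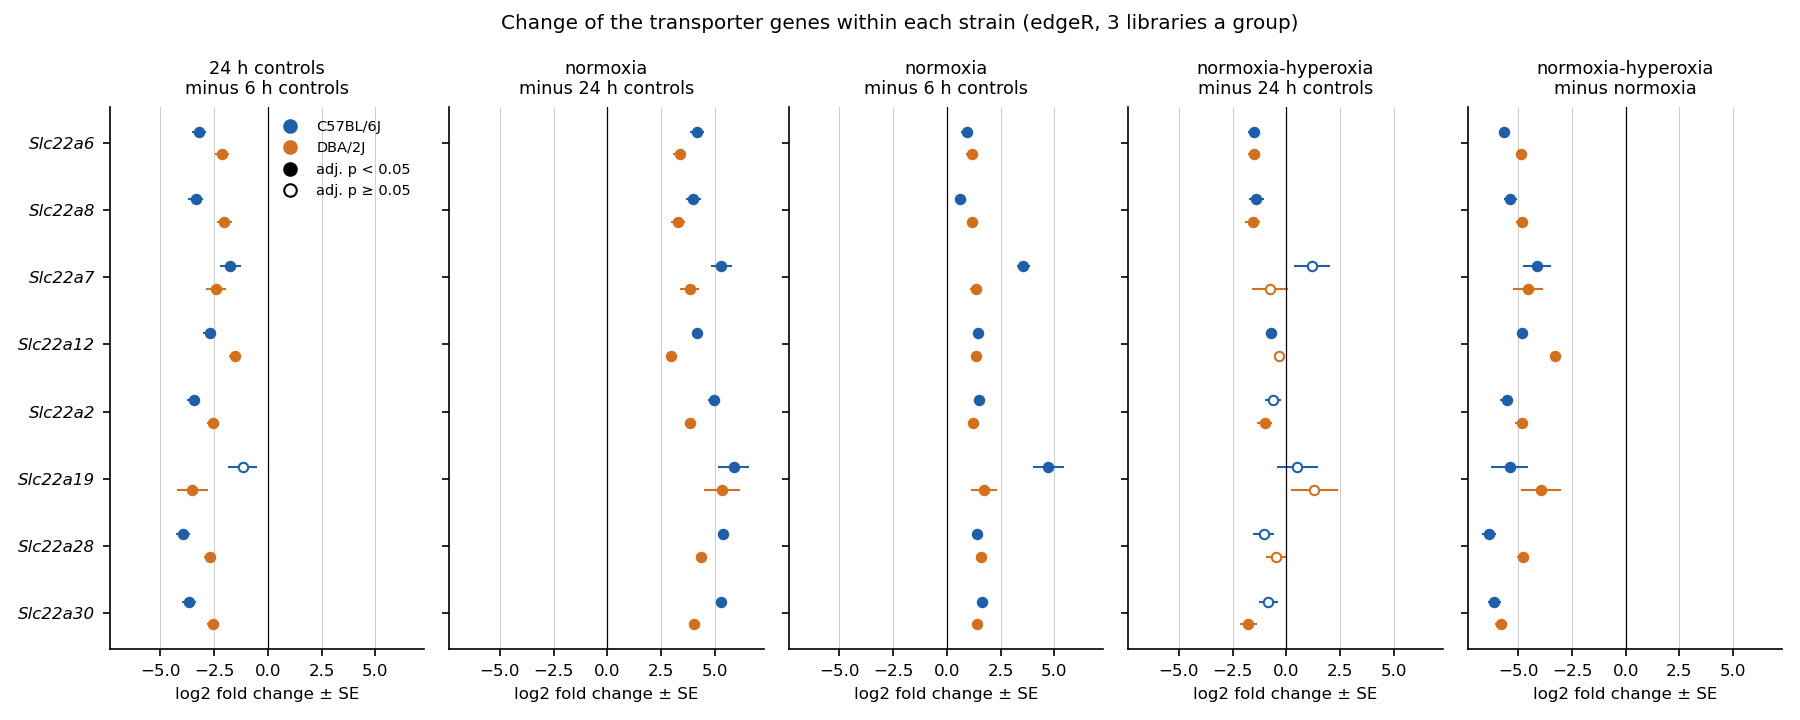
Log2 fold change with its SE for each transporter in 5 comparisons, by strain, from edgeR fits of 12 libraries. Filled points have an adjusted p under 0.05, and Slc22a26 is left out because it passed the filter on low counts only through normoxia. Points for normoxia lie above 0 and points for normoxia-hyperoxia against normoxia lie below 0 in both strains.

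Proximal tubule markers moved with the transporters under normoxia. Against 24 h controls 10 of 10 were higher (median log2 3.67), as were 3 of 3 loop of Henle markers (1.81), 3 of 3 of the distal convoluted tubule (1.32) and 4 of 5 of the collecting duct (1.28). Against 6 h controls 8 of 10 proximal tubule markers were higher (median 0.95), all 3 distal convoluted tubule markers were lower (-0.69), and so were 3 of 3 podocyte, 4 of 4 endothelial and 4 of 4 stromal markers. In the same comparison 3 of 4 immune markers were higher and 1 lower, 2 of 4 hepatocyte markers and 1 of 3 loop of Henle markers were higher, and 1 of 5 collecting duct markers was higher and 3 lower. Hepatocyte markers were higher against 24 h controls in 4 of 4 cases (2.7), and their summed level under normoxia was 28.8 to 51.0 CPM. Of the other lists against 24 h controls, 2 of 3 podocyte markers were lower, 1 of 4 endothelial markers was higher and 2 lower, 0 of 4 stromal markers passed, and 3 of 4 immune markers were higher and 1 lower. The part of these markers in the transporter differences was not tested.

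Normoxia followed by hyperoxia gave the lowest levels of the abundant transporters. Against normoxia alone all 8 genes other than Slc22a26 were lower over both strains, with log2 differences from -4.07 ± 0.12 for Slc22a12 to -5.96 ± 0.20 for Slc22a30 and a highest adjusted p of 9.42e-05. All 8 were also without overlap in both strains. The shares over all genes tested were 36.5% called lower and 25.3% lower without overlap. The median was -5.15 over the 8 transporters and 0.02 over all genes. Slc22a26, which passed the filter on low counts through normoxia, is not counted, and held 3, 16 and 5 counts in C57BL/6J and 7, 1 and 1 in DBA/2J under normoxia-hyperoxia. For the carriers of the blood side the differences were -5.20 ± 0.22 (Slc22a2), -5.26 ± 0.17 (Slc22a6) and -5.10 ± 0.20 (Slc22a8). In mean CPM, Slc22a6 was 49.9-fold lower in C57BL/6J and 26.2-fold lower in DBA/2J, and Slc22a28 was 85.8-fold and 26.5-fold lower. Without DBA/2J normoxia-hyperoxia replicate 1 the latter was 44.5-fold lower.

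URAT1 kept more of its level in DBA/2J. The mean level of Slc22a12 was 28.6-fold lower in C57BL/6J, against 8.70-fold lower in DBA/2J, and the log2 effects of -4.85 and -3.29 differed by 1.55 ± 0.21 (adjusted p = 0.000404). This call held in each of the 12 fits that left out 1 library. Slc22a28 also passed the test of strain difference (-6.37 and -4.78, difference 1.59 ± 0.49, adjusted p = 0.0429), but 9 of those 12 fits lost it (adjusted p 0.0614 to 0.154), as did the fit of all 48 libraries (0.128), and without DBA/2J normoxia-hyperoxia replicate 1 the difference was 0.75. Without C57BL/6J normoxia replicate 2 the difference for Slc22a6 passed as well (0.97, adjusted p = 0.020). Over all genes 18.2% passed this test.

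Against 24 h controls the differences were smaller. The secretory carriers Slc22a6 (-1.51 ± 0.19, adjusted p = 2.88e-05) and Slc22a8 (-1.48 ± 0.24, adjusted p = 0.000206) were lower, as were Slc22a30 (-1.31 ± 0.30, adjusted p = 0.00137), Slc22a2 (-0.81 ± 0.27, adjusted p = 0.0186) and Slc22a12 (-0.53 ± 0.13, adjusted p = 0.00358). These were 5 of 8 transporters tested, beside 34.1% called lower and 34.1% called higher among 17256 genes. The values for Slc22a28 (-0.77 ± 0.34, adjusted p = 0.0550), Slc22a7 (0.21 ± 0.59, adjusted p = 0.768) and Slc22a19 (0.91 ± 0.72, adjusted p = 0.285) did not pass. In 3 of the 8 the libraries of both strains did not overlap, near the 33.1% of all genes. The Slc22a2 call was lost without DBA/2J normoxia-hyperoxia replicate 3 (-0.72, adjusted p = 0.0511), and that of Slc22a12 in the fit of all 48 libraries (adjusted p = 0.0900). Slc22a28 passed without any 1 of 4 libraries (adjusted p 0.00337 to 0.0351), which were replicate 1 of the C57BL/6J 24 h controls, replicate 2 of the DBA/2J ones, C57BL/6J normoxia-hyperoxia replicate 2 and DBA/2J normoxia-hyperoxia replicate 1. No strain difference passed, where 1.43% of all genes did.

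Against 6 h controls 7 of 8 transporters were lower under normoxia-hyperoxia, from -1.84 for Slc22a7 (adjusted p = 0.00933) to -4.38 for Slc22a30, beside 22.5% of 16841 genes called lower. For Slc22a7 the log2 change was -3.16 in DBA/2J (adjusted p = 0.00519) and -0.53 in C57BL/6J (adjusted p = 0.614), where the libraries overlapped at 8.52, 10.6 and 0.605 CPM against 9.23, 8.51 and 10.5 in the 6 h controls, and the difference between the strains did not pass (adjusted p = 0.351). Slc22a19 was at -1.42 (adjusted p = 0.0753), and without DBA/2J normoxia-hyperoxia replicate 1 at -2.29 (adjusted p = 0.0186). In 6 of the 8 the libraries of both strains did not overlap, against 12.4% of all genes. No strain difference passed there, where 0.232% of all genes did, but that for Slc22a12 did without C57BL/6J 6 h control replicate 2 (1.74, adjusted p = 0.00399).

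Marker lists split under normoxia-hyperoxia. Against normoxia, 10 of 10 proximal tubule markers were lower (median -4.45) and 0 of 3 loop of Henle markers passed, while 3 of 3 distal convoluted tubule markers (1.32), 5 of 5 of the collecting duct (0.86), 3 of 3 of podocytes (1.17), 4 of 4 of endothelium (1.07), 3 of 4 of stroma and 3 of 4 immune markers were higher. Hepatocyte markers were lower in 3 of 4 cases (-2.26). Against 24 h controls 5 of 10 proximal tubule markers were lower (-0.66) and 5 did not pass, whereas all 3 loop of Henle (1.87), all 3 distal convoluted tubule (2.73) and all 5 collecting duct markers (2.12) were higher. So were 3 of 3 podocyte, 3 of 4 stromal and 3 of 4 immune markers (1 immune marker was lower), 2 of 4 endothelial markers were higher and 1 lower, and hepatocyte markers split (1 and 1 of 4). Against 6 h controls 10 of 10 proximal tubule markers (-3.45), 2 of 4 stromal and 2 of 4 hepatocyte markers were lower. There 3 of 3 distal convoluted tubule (1.03), 4 of 5 collecting duct (0.71), 4 of 4 immune and 1 of 4 endothelial markers were higher, and 0 of 3 loop of Henle and 0 of 3 podocyte markers passed. No proximal tubule marker was at 0 in any library, and the list summed to 497 to 1489 CPM under normoxia-hyperoxia. The part of these marker levels in the transporter differences was not tested.

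The drugs were tested to see whether the transporters respond to a nephrotoxin at either time. No transporter passed the test: edgeR called 0 of the 8 or 9 transporters tested in each of the 4 comparisons over both strains, and DESeq2 also called 0. Tunicamycin gave log2 differences from -0.21 to 0.30 at 6 h and from -0.02 to 0.34 at 24 h. Cyclosporin gave -0.15 to 0.91 at 6 h and -0.17 to 0.78 at 24 h, with SEs of up to 0.58 and 0.55. Over all genes edgeR called 1.38% of 16905 for tunicamycin at 24 h and 0% for the other 3 comparisons. At an unadjusted p under 0.05 there were 281 genes for tunicamycin at 6 h, 734 for cyclosporin at 6 h, 2174 for tunicamycin at 24 h and 1107 for cyclosporin at 24 h. Among the transporters 2 had an unadjusted p under 0.05, Slc22a7 and Slc22a19 with cyclosporin at 6 h, named after their values were seen.

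For Slc22a7 the C57BL/6J libraries held 18.5, 15.5 and 22.4 CPM with cyclosporin at 6 h and 9.23, 8.51 and 10.5 in the matching controls, without overlap. The log2 difference was 1.03 ± 0.43 in C57BL/6J and 0.33 ± 0.39 in DBA/2J, where the libraries held 31.2, 43.2 and 109 CPM against 47.4, 31.3 and 68.6. For Slc22a19 in C57BL/6J the values were 4.53, 5.25 and 4.26 CPM against 0.839, 3.16 and 2.12, also without overlap, and the log2 difference was 1.23 ± 0.58 in C57BL/6J and 0.59 ± 0.51 in DBA/2J. None of these passed after adjustment over all genes. For Slc22a2, in contrast, the cyclosporin libraries at 6 h spread across the controls in C57BL/6J, at 81.1, 45.2 and 146 CPM against 125, 61.9 and 99.9. None of the 10 proximal tubule markers passed in any drug comparison.

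The strains differed in the level of several carriers. OCT2 and OAT1 were higher in DBA/2J without overlap in all 8 conditions. They were 2 of the 8 transporters other than Slc22a26, beside 7.63% of the 14707 genes with a mean of at least 1 CPM over all libraries. By condition, DBA/2J libraries lay above C57BL/6J libraries without overlap for 5 of those 8 transporters in the 6 h controls (34.5% of genes), 4 with tunicamycin (31.3%) and 4 with cyclosporin at 6 h (37.4%), 6 in the 24 h controls (28.5%), 4 with tunicamycin (22.3%) and 6 with cyclosporin at 24 h (26.2%), 4 under normoxia (32.7%) and 5 under normoxia-hyperoxia (28.5%). The C57BL/6J libraries lay above for 1 of the 8, Slc22a28 under normoxia, beside 27.9% of genes. Values of CPM are scaled by totals that include the mitochondrial counts.

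Proximal tubule markers moved with these strain gaps. Their summed level was 8604 to 10156 CPM in DBA/2J against 3742 to 7393 in C57BL/6J in the 6 h controls, 1493 to 3044 against 687 to 999 in the 24 h controls, 17164 to 19020 against 8724 to 11556 under normoxia, and 1005 to 1489 against 497 to 697 under normoxia-hyperoxia. The strains did not overlap in any of these 4. Of the 10 markers 6, 9, 7 and 6 were called higher in DBA/2J, in that order, and 0 lower. Collecting duct markers were called lower in DBA/2J in 3, 2, 5 and 3 of 5 cases and 0 higher. So were endothelial (4, 2, 3 and 0 of 4) and podocyte markers (2, 2, 2 and 0 of 3). Stromal (0, 0, 3 and 2 of 4) and loop of Henle markers (0, 0, 3 and 0 of 3) were lower too. Distal convoluted tubule markers were lower in 1, 0, 2 and 0 of 3 and higher in 0, 2, 0 and 0. Immune markers were higher in 1, 2, 0 and 4 of 4 and lower in 0, 0, 1 and 0. Hepatocyte markers were higher in 1, 1, 1 and 2 of 4 and lower in 2, 1, 2 and 0. The part of these markers, and of the mitochondrial share given above, in the strain gaps was not tested.

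In the 6 h controls the log2 difference, DBA/2J minus C57BL/6J, was 1.04 ± 0.28 for Slc22a2 (adjusted p = 0.0179), 1.29 ± 0.31 for Slc22a6 (adjusted p = 0.0108), 2.24 ± 0.45 for Slc22a7 (adjusted p = 0.00383) and 1.01 ± 0.26 for Slc22a30 (adjusted p = 0.0135). These were 4 of 8 tested, beside 13.6% of all genes called higher and 12.7% lower. Slc22a8 (0.43, adjusted p = 0.364), Slc22a12 (0.33, adjusted p = 0.406), Slc22a19 (1.42, adjusted p = 0.11) and Slc22a28 (-0.48, adjusted p = 0.173) did not pass. The Slc22a2 call was lost without C57BL/6J 6 h control replicate 2 (adjusted p = 0.0593) or DBA/2J replicate 3 (0.0669), and the Slc22a30 call without the latter (0.0570). The fit of all 48 libraries called neither (adjusted p = 0.0519 for each).

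In the 24 h controls 6 of 8 were higher in DBA/2J, beside 13.9% of all genes. Slc22a6 differed by 2.38 ± 0.33 (adjusted p = 0.000371), Slc22a30 by 2.11 ± 0.34 (adjusted p = 0.000840), Slc22a2 by 1.95 ± 0.31 (adjusted p = 0.000947), Slc22a8 by 1.77 ± 0.35 (adjusted p = 0.00364) and Slc22a12 by 1.52 ± 0.28 (adjusted p = 0.00239). The sixth, Slc22a7, differed by 1.56 ± 0.51 (adjusted p = 0.0475) and was lost in 8 of 12 fits without 1 library, with adjusted p from 0.0592 to 0.193, and in the fit of all 48 libraries (0.102). C57BL/6J 24 h control replicate 3 was its lowest library, with 8 counts. Slc22a28 did not pass (0.78, adjusted p = 0.13), but did without DBA/2J 24 h control replicate 2 (1.04, adjusted p = 0.0375). Slc22a19 went the other way and did not pass (-0.92, adjusted p = 0.477).

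Under normoxia Slc22a6 (1.57 ± 0.20, adjusted p = 4.17e-05), Slc22a8 (1.04 ± 0.24, adjusted p = 0.00401), Slc22a2 (0.84 ± 0.25, adjusted p = 0.0171) and Slc22a30 (0.83 ± 0.20, adjusted p = 0.00494) were higher in DBA/2J, 4 of the 8 other than Slc22a26, beside 28.3% of all genes called higher. Slc22a26 passed the filter on low counts through its C57BL/6J normoxia libraries and is given without a test. Its DBA/2J libraries held 2.5, 0.469 and 1.05 CPM against 4.11, 14.7 and 13.7 in C57BL/6J. The Slc22a2 call was lost without C57BL/6J normoxia replicate 2 (adjusted p = 0.0635) or DBA/2J normoxia replicate 1 (0.0511). The fit of all 48 libraries lost the calls for Slc22a2 (0.118), Slc22a8 (0.0950) and Slc22a30 (0.101), and called Slc22a19 lower in DBA/2J (-1.63, adjusted p = 0.0374). Slc22a7, which differed between the strains in the 6 h controls, did not pass here (0.05, adjusted p = 0.952), with 118 ± 37.8 CPM in C57BL/6J against 116 ± 4.7 in DBA/2J (SD, n = 3 each). Slc22a19 (-1.54, adjusted p = 0.0744) did not pass, but did without replicate 1 of the normoxia group of C57BL/6J (-1.88, adjusted p = 0.0452) or of DBA/2J (-2.21, adjusted p = 0.0315). Slc22a12 (0.29, adjusted p = 0.125) passed without C57BL/6J normoxia replicate 1 (0.44, adjusted p = 0.0293), and Slc22a28 (-0.26, adjusted p = 0.341) without DBA/2J normoxia-hyperoxia replicate 1 (-0.28, adjusted p = 0.0499).

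Under normoxia-hyperoxia 5 of the 8 genes other than Slc22a26 were higher in DBA/2J, beside 14.3% of all genes. They were Slc22a6 (2.35 ± 0.22, adjusted p = 7.26e-06), Slc22a12 (1.84 ± 0.16, adjusted p = 8.04e-07), Slc22a8 (1.57 ± 0.27, adjusted p = 0.00157), Slc22a2 (1.54 ± 0.31, adjusted p = 0.00396) and Slc22a28 (1.33 ± 0.44, adjusted p = 0.0450). The Slc22a28 call was lost in 9 of 12 fits without 1 library and in the fit of all 48 libraries (adjusted p = 0.126), and without DBA/2J normoxia-hyperoxia replicate 1 the difference was 0.47. Slc22a30 (1.15, adjusted p = 0.0557) passed without DBA/2J normoxia-hyperoxia replicate 3 (1.63, adjusted p = 0.000631). Slc22a7 and Slc22a19 did not pass and were numerically lower in DBA/2J. Their means were 5.18 CPM against 6.58 in C57BL/6J and 1.21 CPM against 1.31. The reference genome is that of C57BL/6J, and its effect on the mapping of DBA/2J reads was not tested.

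**Figure D4:**
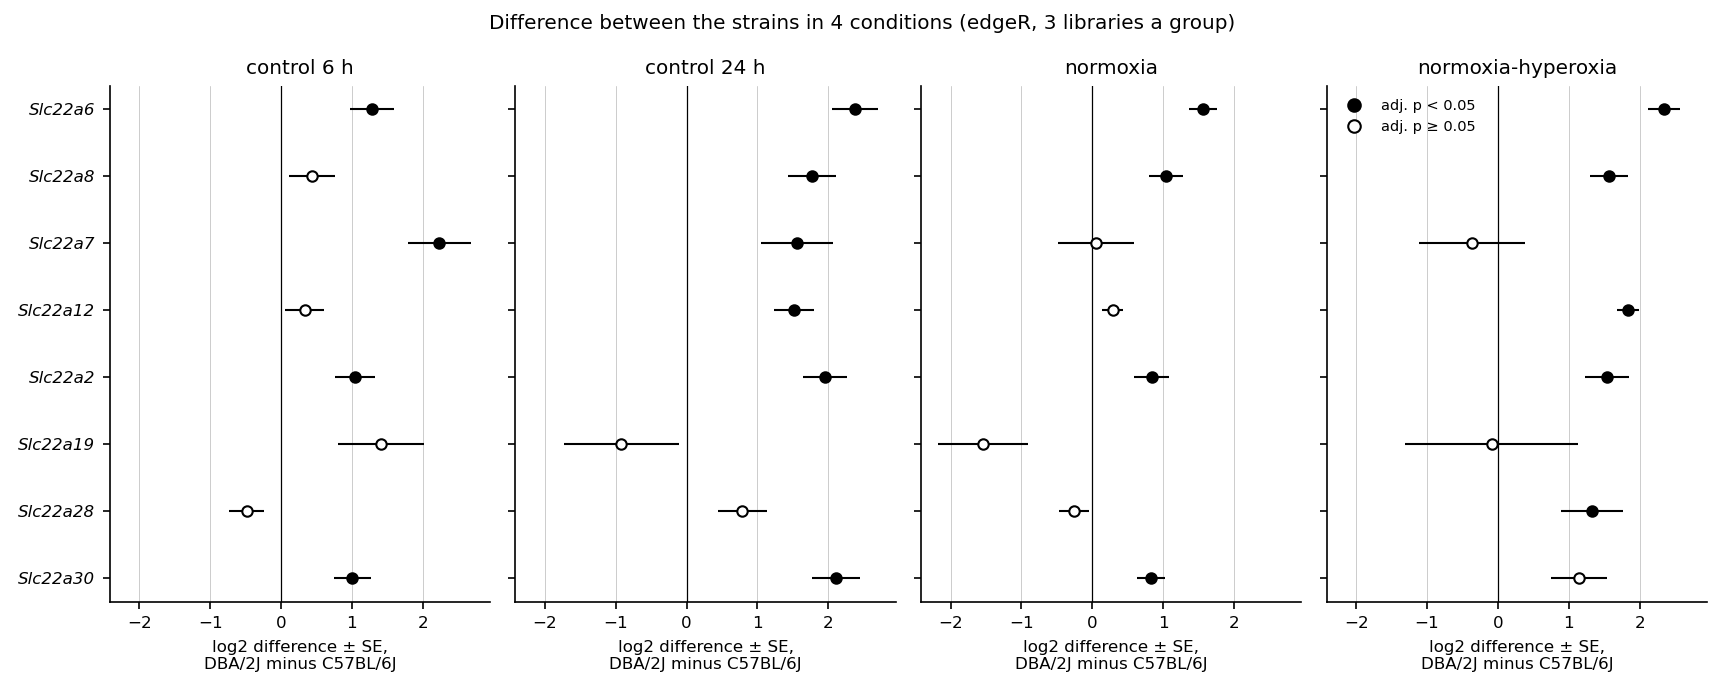
Log2 difference between the strains (DBA/2J minus C57BL/6J) with its SE for each transporter in 4 conditions. Filled points have an adjusted p under 0.05. Slc22a2 and Slc22a6 lie above 0 in all 4 conditions and Slc22a26 is left out because it passed the filter on low counts only through C57BL/6J normoxia.

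The near-identical genes Slc22a28 and Slc22a30 followed the same order of conditions, and their ratio followed strain. In C57BL/6J slices, 31.9, 17.6 and 26.1 CPM of Slc22a28 were measured at 6 h, 1.14, 1.99 and 2.99 at 24 h, 77.6, 64.4 and 67.9 under normoxia and 0.639, 1.15 and 0.655 under normoxia-hyperoxia. DBA/2J slices held 19.2, 18.8 and 21.7 CPM at 6 h, 3.8, 2.23 and 4.4 at 24 h, 59, 51.4 and 56.6 under normoxia and 3.79, 1.25 and 1.25 under normoxia-hyperoxia. The C57BL/6J libraries held 28.8, 16.3 and 26.9 CPM of Slc22a30 at 6 h, 1.59, 2.6 and 2.83 at 24 h, 86.1, 76.6 and 73.1 under normoxia and 0.799, 1.11 and 1.46 under normoxia-hyperoxia. For Slc22a30 in DBA/2J, the libraries were at 51.8, 44.1 and 64.2 CPM at 6 h, 11.4, 6.44 and 12.8 at 24 h, 134, 123 and 142 under normoxia and 4.31, 2.31 and 1.3 under normoxia-hyperoxia. In C57BL/6J the counts of Slc22a30 and Slc22a28 were about level, with a median ratio of 1.06 over 24 libraries (0.64 to 2.23). In DBA/2J the median ratio was 2.64 over 24 libraries (1.04 to 3.33). Under normoxia, where counts were highest, the ratio was 1.08 to 1.19 in C57BL/6J and 2.28 to 2.52 in DBA/2J. Under normoxia-hyperoxia, with as few as 7 counts of Slc22a28 in a library, the DBA/2J ratios of 1.04 to 1.86 overlapped the C57BL/6J ratios of 0.966 to 2.23. In each of the other 7 conditions the strains did not overlap. Reads shared by the genes, and strain variants in them, can shift this ratio, and their part in it was not tested.

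**Figure D5:**
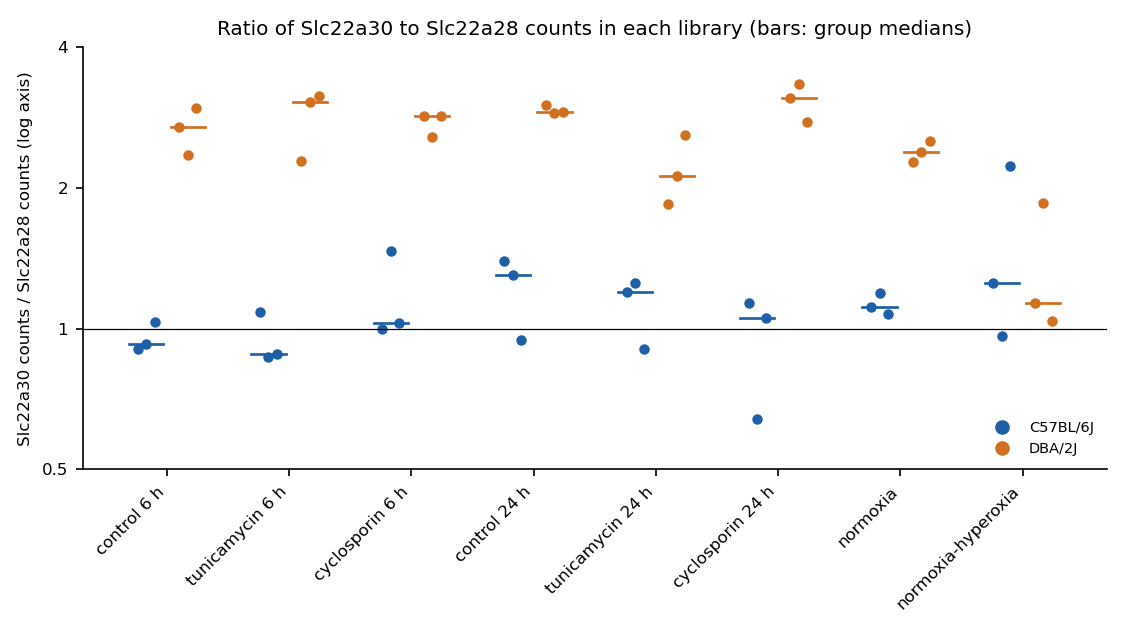
Ratio of Slc22a30 counts to Slc22a28 counts in each library, by condition and strain, with bars at the group medians of 3 libraries. DBA/2J libraries lie above C57BL/6J libraries except under normoxia-hyperoxia, where the ranges of 1.04 to 1.86 and 0.966 to 2.23 overlap.

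The rest of the Slc22 family moved less uniformly. Of the 12 other Slc22 genes tested at 24 h against 6 h, 8 were lower and 3 higher (median -1.58), beside 37.4% and 34.7% of all genes. Among the Slc22 genes with the smallest adjusted p, Slc22a17 (-1.61) and the carnitine carrier Slc22a5 (-1.54) were lower, while Slc22a15 (0.89) and Slc22a21 (0.91) were higher. Under normoxia against 24 h controls 8 of 12 were higher and 2 lower (median 2.17), beside 42.4% and 39.7% of all genes. Slc22a18 (3.89) and Slc22a5 (2.39) had the smallest adjusted p of the 8, and Slc22a15 (-1.32) and Slc22a21 (-0.42) were lower. Under normoxia-hyperoxia against 24 h controls 3 of 12 were higher and 6 lower, beside 5881 and 5891 of 17256 genes. Slc22a17 (1.52) and Slc22a5 (0.67) had the smallest adjusted p of the 3, and Slc22a18 (-0.92) was among the 6. Against normoxia 9 of 12 were lower (median -1.16), beside 36.5% of all genes, among them Slc22a18 (-4.78), and Slc22a15 (1.18) was higher. In normoxia-hyperoxia against 24 h controls the value of -0.16 for Slc22a15 did not pass.

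Secretion of organic ions also needs exit carriers on the urine side, a sodium gradient and the dicarboxylate supply that drives exchange. A list of 21 such partner genes included apical exporters (Abcc2, Abcc4, Abcg2, Abcb1a, Slc47a1, Slc47a2), urate and anion carriers (Slc17a1, Slc17a3, Slc2a9), dicarboxylate and monocarboxylate carriers (Slc13a2, Slc13a3, Slc5a8), the scaffold Pdzk1, the pump subunit Atp1b1, Slco4c1, Slco1a1, Slco1a6 and the factor Hnf4a. At 24 h against 6 h, 16 of 19 tested were lower (median -2.27), beside 37.4% of all genes, including Atp1b1 (-1.59) and Slc5a8 (-2.97). The exporters MRP4 (Abcc4, 2.40 ± 0.08) and P-glycoprotein (Abcb1a, 0.90 ± 0.20) were the 2 that rose. Under normoxia against 24 h controls the split was mirrored, with 18 of 20 higher (median 3.36), among them Slc13a2 (4.27), and Abcc4 (-2.60) and Abcb1a (-1.32) lower. The share of all genes called higher was 42.4% there. Against 6 h controls 15 of 20 were higher and 3 lower (0.96), beside 32.9% of all genes called higher.

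Under normoxia-hyperoxia the partners split. Against 24 h controls 7 of 20 were higher, near the share of all genes, and 11 lower (median -0.51). Of 17256 genes tested, 5881 were called higher and 5891 lower. The pump subunit Atp1b1 (1.67) was higher, and Abcc4 (-2.42) and the apical exporter MRP2, Abcc2 (-3.43), were lower. Against normoxia 16 of 20 were lower (median -3.19), beside 36.5% of all genes, and 2 were higher, among them Abcc4 (0.20). Of those lower, Slc13a2 (-4.26) and Abcg2 (-3.39) had the smallest adjusted p. Against 6 h controls 16 of 20 were lower and 0 higher (-2.28), beside 22.5% of all genes called lower. Hnf4a, named for the element searched above and not by the size of its change, was lower at 24 h against 6 h (-2.27 ± 0.17), higher under normoxia against 24 h controls (3.59 ± 0.16) and lower under normoxia-hyperoxia against normoxia (-3.0 ± 0.15). The values of Hnf4a in the other comparisons are not given here. A link between this factor and the transporters was not tested.

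Across the 16 group means, likeness was measured by Pearson's r of log2 CPM between each transporter and 13325 other genes. These had a mean of at least 1 CPM and a named symbol. The transporters of the set and Gm, Rik or accession-like names were left out. The r values only describe genes that share libraries and conditions. The nearest genes to Slc22a2 were Slc17a3 and Slc27a2 (r = 0.997 each), to Slc22a6 Acsm2 (0.997), to Slc22a8 Slc34a1 (0.997) and Ugt3a2 (0.995), and to Slc22a12 Acot4 and Slc23a1 (0.995 each). Slc22a28 was nearest to Eci3 (0.995) and Inmt (0.991), and Slc22a30 to Mogat1 (0.998) and Ugt3a2 (0.997). The nearest to Slc22a7 were C8a (0.984) and Ghr (0.983), and to Slc22a19 Slc38a3 (0.978) and Agt (0.975). Slc22a26 was under the minimum level. Among the transporters themselves r was 0.874 to 0.996 for the 21 pairs without Slc22a19 and Slc22a26, and 0.50 to 0.884 for the 8 pairs with Slc22a26.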

How the data were processed

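The deposited table holds raw counts per gene for 48 libraries, made by the authors from stranded Illumina mRNA libraries (per the labels' protocols). The submitters' processing notes name bcl2fastq 2.20.0, FastQC 0.11.8, STAR 2.7.9a, featureCounts 1.5.1 and GRCm38. The annotation release and strand setting of the counting are not given in the sources used here. Groups came from strain and treatment labels.

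Each comparison was fitted with edgeR 4.0.16 (R 4.3.3, TMM factors, robust quasi-likelihood, filterByExpr by group) on its 12 libraries, as the mean of the effects in both strains, each strain's effect and their difference. Strain differences came from the fit of the 2 controls or of the 2 oxygen conditions. P-values were adjusted by Benjamini-Hochberg over all genes tested. The script was tested on simulated counts. CPM is the count scaled by the library total, and CPM per kilobase uses GENCODE M21 exon length. Symbols matched 55141 of 55487 genes.

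The transporters, marker lists and tests were chosen with earlier results of these data known. The 9 transporters were always named. Of other Slc22 and partner genes, those with the 2 smallest adjusted p in each direction were named, plus Hnf4a for its motif, and for likeness the 2 genes with the highest r. Some genes that the rule would name, and some of the motifs searched, are not reported here. Alternatives were RLE factors, library totals, no mitochondrial genes, no filter on low counts, DESeq2 1.42.0, one fit of all 48 libraries, a replicate block and leaving out each library. Same-numbered libraries were not treated as pairs, since the labels do not tie a number to a mouse.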

Additional observations from a re-analysis of the deposited data

Results flagged for a closer look

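In all, 6 differences between the strains passed the test of the difference itself (DBA/2J effect minus C57BL/6J effect, edgeR, log2 scale). For normoxia against 24 h controls they were those of Slc22a12 (4.16 in C57BL/6J and 2.94 in DBA/2J, difference -1.22, adjusted p = 0.0113), Slc22a2 (4.95 and 3.85, difference -1.10, adjusted p = 0.0360) and Slc22a30 (5.31 and 4.05, difference -1.27, adjusted p = 0.0219). For normoxia against 6 h controls it was that of the cyclic nucleotide and organic anion carrier Slc22a7 (3.57 and 1.35, difference -2.22, adjusted p = 0.0168). For normoxia-hyperoxia against normoxia they were those of the urate carrier Slc22a12 (-4.85 and -3.29, difference 1.55, adjusted p = 0.000404) and Slc22a28 (-6.37 and -4.78, difference 1.59, adjusted p = 0.0429). In each of the 6 the effect in C57BL/6J was the larger in size. Only the second Slc22a12 difference was called in every alternative fit that was run. The first was lost in the fit of all 48 libraries (adjusted p = 0.124), and the other 4 were each lost without at least 1 library.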

How the results depend on the processing

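No called value of a transporter changed direction under any alternative, and scaling by RLE factors changed no call. The number of transporters called moved by over 1.5 times as follows, and the cause was not tested. Without the filter on low counts, the strain difference in the 24 h against 6 h effect was called for 8 transporters instead of 0, in normoxia against 24 h controls for 7 instead of 3, in normoxia against 6 h controls for 3 instead of 1, in normoxia-hyperoxia for 1 instead of 0 against 24 h controls, 6 instead of 0 against 6 h controls and 7 instead of 2 against normoxia. In the same setting 8 instead of 5 changed in normoxia-hyperoxia against 24 h controls, and 8 instead of 4 differed between strains in the 6 h controls. DESeq2 called strain differences for 3 instead of 1 (normoxia against 6 h) and 2 instead of 0 (normoxia-hyperoxia against 6 h). The fit of all 48 libraries called 0 instead of 3, 0 instead of 1 and 1 instead of 2 strain differences (normoxia against 24 h, against 6 h, and normoxia-hyperoxia against normoxia), and 2 instead of 4 and 3 instead of 5 strain gaps (6 h controls, normoxia). Slc22a26, not counted in the results, is 1 of the 3 and 1 of the 5 under normoxia (2 instead of 4 without it), and 1 of the 3 with no filter and 1 of the 3 with DESeq2 in normoxia against 6 h controls, and 1 of the 7 with no filter in normoxia-hyperoxia against normoxia, and 1 of the 8 against 24 h controls.

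Leaving out 1 library at a time, the counts over both strains stayed at 8 (24 h against 6 h), 9 (normoxia against either control) and 9 (normoxia-hyperoxia against normoxia), where Slc22a26, fixed by the filter on low counts, is 1 of the 9, and ran from 4 to 6 and from 7 to 8 for normoxia-hyperoxia against 24 h and 6 h controls. Strain differences in effect ran from 1 to 5 and 0 to 1 (normoxia against 24 h and 6 h), 0 to 0 and 0 to 1 (normoxia-hyperoxia against 24 h and 6 h), 1 to 2 (against normoxia) and 0 to 0 (24 h against 6 h and the drugs). Strain gaps ran from 2 to 4 (6 h controls), 5 to 7 (24 h controls), 4 to 7 (normoxia, 3 to 6 without Slc22a26) and 4 to 6 (normoxia-hyperoxia).

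With a replicate block the strain difference in normoxia against 6 h controls was called for 4 transporters instead of 1, by adding Slc22a8 (0.53, adjusted p = 0.0121), Slc22a19 (-3.05, adjusted p = 0.000415) and Slc22a26. In normoxia-hyperoxia the block added Slc22a28 against 24 h controls (-0.86, adjusted p = 0.0152), Slc22a19 against 6 h controls (-1.67, adjusted p = 0.0325) and the strain difference of Slc22a6 against normoxia (0.73, adjusted p = 0.0437), where that of Slc22a28 was the 1 call lost (1.51, adjusted p = 0.0584). Within 1 strain it added 3 calls in normoxia-hyperoxia, Slc22a7 and Slc22a28 in C57BL/6J against 24 h controls and Slc22a19 in DBA/2J against 6 h controls. Libraries were not treated as pairs: same-numbered libraries correlated at -0.14 to 0.37 over 60 pairs, and in 0 of 10 comparisons were all over 0.1. Yet 40 of 60 correlated best with their own number, and in normoxia against 6 h controls 6 of 6 did, with 5 over 0.1, a hint from the data and not the design. For the strain gaps alone, no paired analysis was possible because each block lies within 1 strain. Library totals and DESeq2 each also called the strain differences of Slc22a28 (normoxia against 24 h controls) and Slc22a6 (normoxia-hyperoxia against normoxia) and the strain gap of Slc22a30 under normoxia-hyperoxia, DESeq2 those of Slc22a12 and Slc22a28 in normoxia-hyperoxia against 6 h controls, and library totals Slc22a28 in normoxia-hyperoxia against 24 h controls (-0.95, adjusted p = 0.0202). Scaling by library totals moved the median of all genes by 0.21 (24 h against 6 h), -0.27 (normoxia against 24 h) and -0.17 (normoxia-hyperoxia against 24 h), less than the called transporter changes there. Library totals lost the calls for Slc22a19 and Slc22a26 in DBA/2J alone in normoxia against 6 h controls. DESeq2 lost that for Slc22a2 in DBA/2J alone in normoxia-hyperoxia against 24 h controls. Depth limits Slc22a26, Slc22a19, Slc22a28 and Slc22a7 most, with 0, 1, 7 and 8 counts in their lowest libraries.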
